A study of Arabidopsis thaliana with 9 samples.

Results

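Rapid wound, touch and defence response genes were followed in shoots of Arabidopsis thaliana, wild type Col-0, under 3 iron conditions. The group holds 47 loci named one by one: WRKY, zinc finger and AP2/ERF transcription factors, the touch-induced TCH genes, the kinases MPK3 and MKK9, the deadenylases CAF1a and CAF1b, the ubiquitin ligases PUB22 and PUB23, the oxidase RBOHD, and genes of like kind. They are 47 of the 34262 genes and 69 of the 55442 transcripts in each deposited table. The loci were selected on knowledge of these same tables, and the log2 fold changes and p-values of all 3 comparisons count as used in choosing them, so what the 3 comparisons show for them is a description, and nothing about the group is supported by a count of its members.

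All plants grew for 14 days on medium with iron and were then moved to fresh medium for 3 days and again for a last 24 h. Plants of the +Fe group had iron at every step, those of the -Fe group had none in the last 2 steps, and those of the Fe resupply group had none for 3 days and iron for the last 24 h. Each group had 3 samples, 9 in all, and the labels call them biological replicates. The samples share 1 genotype and 1 tissue, and every group went through both transfers.

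Plants answer wounding, bending, touch and microbial molecules within minutes. Calcium enters the cell, reactive oxygen is made at the plasma membrane, and mitogen-activated protein kinase cascades phosphorylate transcription factors already present. A first wave of genes then comes on that needs no new protein synthesis, and many of their mRNAs are short-lived. These genes encode WRKY factors, which bind the W-box, ethylene response factors, many of which bind the GCC-box, zinc finger repressors of the ZAT type, calmodulin-like proteins and enzymes of cell wall remodelling. Several of the same genes encode brakes on the response. The group is also known to respond to handling of the plants.

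The promoters of the loci that moved most are shown first, because the binding sites of 2 of the factor families in the group can be read in them. The stretch taken was the 300 bases before the annotated gene start in RefSeq (assembly TAIR10.1; the authors mapped to TAIR10), 5′ to 3′ on the strand of the gene. Capitals mark matches, on either strand, to TTGACC or TTGACT (W-box), GCCGCC (GCC-box), CGCGTT (core of the rapid stress response element, RSRE) or CACGTG (G-box). The first 4 are among the 5 loci with the largest log2 fold change in -Fe vs +Fe among those at 5 CPM (the level unit of the edgeR tables, on a common library scale) or more. WRKY33, SZF1 and SZF2 were added after their matches were seen.
WRKY40, chr1:30383261-30383560, plus strand: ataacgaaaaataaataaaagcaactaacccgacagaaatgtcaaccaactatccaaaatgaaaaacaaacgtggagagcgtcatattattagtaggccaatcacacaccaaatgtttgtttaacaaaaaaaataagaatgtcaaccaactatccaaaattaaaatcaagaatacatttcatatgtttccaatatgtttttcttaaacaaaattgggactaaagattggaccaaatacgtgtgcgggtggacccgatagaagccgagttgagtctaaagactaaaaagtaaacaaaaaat
ERF5, chr5:19179581-19179880, plus strand: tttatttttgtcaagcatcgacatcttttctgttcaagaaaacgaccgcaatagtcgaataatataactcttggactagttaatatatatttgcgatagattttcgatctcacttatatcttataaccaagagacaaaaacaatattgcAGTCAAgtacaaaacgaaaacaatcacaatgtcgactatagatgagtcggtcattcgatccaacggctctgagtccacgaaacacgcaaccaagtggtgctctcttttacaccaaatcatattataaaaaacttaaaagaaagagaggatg
ZAT6, chr5:1217363-1217662, minus strand: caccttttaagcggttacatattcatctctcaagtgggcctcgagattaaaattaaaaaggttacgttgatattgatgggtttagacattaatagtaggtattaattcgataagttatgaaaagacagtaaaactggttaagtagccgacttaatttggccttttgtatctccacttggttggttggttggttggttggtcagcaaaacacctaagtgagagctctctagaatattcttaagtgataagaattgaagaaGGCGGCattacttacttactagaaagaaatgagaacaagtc
ERF6, chr4:9754162-9754461, minus strand: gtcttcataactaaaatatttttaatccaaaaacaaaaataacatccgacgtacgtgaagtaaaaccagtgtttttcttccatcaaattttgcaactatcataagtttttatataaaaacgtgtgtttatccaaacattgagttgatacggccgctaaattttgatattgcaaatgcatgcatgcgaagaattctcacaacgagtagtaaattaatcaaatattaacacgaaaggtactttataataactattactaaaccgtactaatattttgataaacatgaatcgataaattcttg
WRKY33, chr2:16107935-16108234, plus strand: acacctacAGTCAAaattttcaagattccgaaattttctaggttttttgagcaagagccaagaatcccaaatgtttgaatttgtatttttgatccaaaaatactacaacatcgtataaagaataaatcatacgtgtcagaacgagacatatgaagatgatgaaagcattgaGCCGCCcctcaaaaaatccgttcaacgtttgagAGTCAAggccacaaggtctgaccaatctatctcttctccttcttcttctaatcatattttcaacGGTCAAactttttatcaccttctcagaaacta
SZF1, chr3:20775920-20776219, plus strand: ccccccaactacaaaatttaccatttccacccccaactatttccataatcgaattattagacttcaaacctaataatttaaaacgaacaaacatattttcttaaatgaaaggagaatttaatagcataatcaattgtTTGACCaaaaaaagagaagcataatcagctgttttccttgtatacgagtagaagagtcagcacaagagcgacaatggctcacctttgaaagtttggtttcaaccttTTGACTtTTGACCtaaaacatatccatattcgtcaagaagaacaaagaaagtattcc
SZF2, chr2:16771697-16771996, plus strand: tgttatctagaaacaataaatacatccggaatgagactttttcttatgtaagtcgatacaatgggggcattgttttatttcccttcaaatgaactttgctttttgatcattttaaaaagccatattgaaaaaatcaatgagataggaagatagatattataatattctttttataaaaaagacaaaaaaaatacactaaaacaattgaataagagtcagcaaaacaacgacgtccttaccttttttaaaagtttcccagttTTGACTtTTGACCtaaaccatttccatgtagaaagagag

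SZF1 and SZF2, paralogues on chromosomes 3 and 2, each carried the pair TTGACT and TTGACC separated by 1 base, at -57 and -50 from the gene start in SZF1 and at -39 and -32 in SZF2. WRKY33 held 3 W-box matches and a GCC-box match. The window of WRKY40 and that of ERF6 held no match to any of the searched letters. The window of ERF5 overlaps a small annotated gene on the opposite strand.

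**Figure D1:**
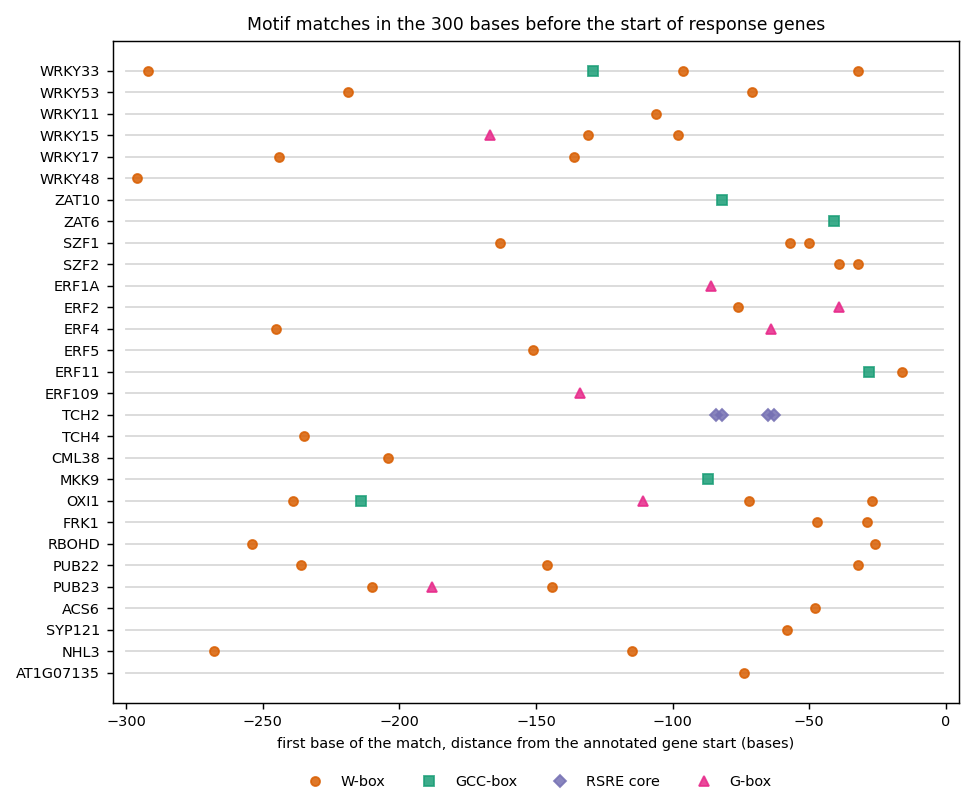
Positions of motif matches in the 300 bases before the annotated start of each response gene with at least 1 match; the x axis is the distance in bases of the first base of the match from the gene start, and each line is 1 gene. W-box matches (circles) lie in 23 of the 46 loci searched, GCC-box matches (squares) in 6, G-box matches (triangles) in 7, and RSRE core matches (diamonds) in TCH2 only.

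A W-box match lay in the windows of 23 of the 46 loci searched, which is 50.0%, against 32.3% of 27437 protein-coding genes of the 5 chromosomes. At least 2 W-box matches were found in 12 loci, or 26.1%, against 7.90% of all these promoters. The GCC-box was found in 6 loci (WRKY33, ZAT10, ZAT6, ERF11, MKK9 and OXI1), or 13.0% against 2.26%, and the G-box in 7, or 15.2% against 7.09%. The RSRE core lay in 1 locus, or 2.17% against 3.08%: TCH2, a touch-induced calmodulin-like gene, held 4 matches, overlapping ones on the 2 strands counted separately. The median log2 fold change in -Fe vs +Fe was 0.78 over the 23 loci with a W-box match and 1.19 over the 23 without. A match is a description of the letters, and the windows of 3 of the 46 loci overlap another gene.

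The deposited tables hold the authors' statistics for each pair of conditions and no value for a single sample, so neither the level in each sample nor a standard deviation can be given. For each locus the results below use the leading transcript, the one with the highest average level, with its mean level in each condition in CPM, recovered from the deposited average and fold change. Whether these CPM levels were divided by transcript length is not known, because the input given to edgeR is not given. Levels are therefore compared between conditions and not between genes. The standard error (SE) beside a log2 fold change is the one implied by the deposited F statistic and is approximate. The threshold was a log2 fold change of 1 or more in either direction together with an adjusted p, over the whole table of the authors' edgeR test, below 0.05.

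Of the whole series, the following bears on these values. The tables show 6 libraries per condition in each fit where the labels give 3 samples, and effective library totals of 1125130 to 1143210 in the units of the edgeR input. Of the 69 member transcripts, 10 were at 0 in all tables. The photosynthesis transcripts RBCS1A, LHCB1.1 and LHCB2.1 were at 4481 to 8335 CPM in both conditions of -Fe vs +Fe, and 3 of 4 root markers were detected. Of these, PYK10 was at 123 CPM in +Fe, 102 CPM in -Fe and, after resupply, 73.7 CPM, IRT1 was at 2.14 CPM or less in these conditions, and COBL9 at 0.472 CPM or less. EXPA7 was at 0. The part of root tissue in the results was not tested. bHLH38 and bHLH39, iron deficiency factors, were higher in -Fe than in +Fe by 4.84 and 6.53 on the log2 scale, in the direction of the labels.

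In -Fe vs +Fe, the comparison of iron deficiency with sufficiency, 8 member transcripts passed the threshold and all 8 were higher in -Fe: WRKY33, WRKY40, SZF1, ERF4, ERF6, DREB26, AT1G07135 and AT1G32920. These p-values rest on 6 libraries per condition, and with the libraries taken as identical pairs, so that n is the 3 labelled samples, 0 of the 8 passed. That alternative is an approximate rescaling of the deposited F statistic and not a new fit. Over all transcripts 0.0776% were called higher in -Fe, and 0.259% of those at 5 CPM or more. Of the 47 leading transcripts, 42 had a log2 fold change above 0, 3 below and 2 were at 0. An unadjusted p under 0.05 was found for 28, all higher in -Fe, where 4.52% of all transcripts at 5 CPM or more were higher at that p. The median log2 fold change was 0.93 over the 47 loci. At 5 CPM or more it was 1.14 over 37 loci, of which 36 were above 0, beside 0.004 over 16620 transcripts, of which 50.5% were above 0.

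In -Fe vs Fe resupply, which compares continued deficiency with 24 h of iron after deficiency, 8 member transcripts again passed and were higher in -Fe: WRKY33, SZF1, SZF2, ERF4, ERF6, SYP121, AT1G07135 and AT1G32920. With the libraries taken as identical pairs 0 of these 8 passed. This comparison shares its -Fe samples with the first and its resupply samples with the third. Of all transcripts 0.0758% were called higher in -Fe, and 0.256% of those at 5 CPM or more. The leading transcripts had 40 positive and 7 negative log2 fold changes with a median of 0.70, and 23 had an unadjusted p under 0.05, all higher in -Fe, where 5.25% of all transcripts at 5 CPM or more were. At that level 35 of 38 loci were above 0 with a median of 0.79, beside 50.4% of all 16414 transcripts and a median of 0.004.

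In Fe resupply vs +Fe no member transcript passed the threshold. Over all transcripts 0.00361% were called higher in resupply, or 0.0121% at 5 CPM or more. By the authors' edgeR test 6 leading transcripts had an unadjusted p under 0.05. DREB26, TCH3, MPK3 and PUB23 were higher in resupply, where 3.31% of all transcripts at 5 CPM or more were, and WRKY70 and MKK9 were lower, where 2.75% were. The median was 0.17 over the 47 loci, with 32 above 0 and 15 below. At 5 CPM or more 24 of 35 loci were above 0, beside 51.1% of all transcripts.

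**Figure D2:**
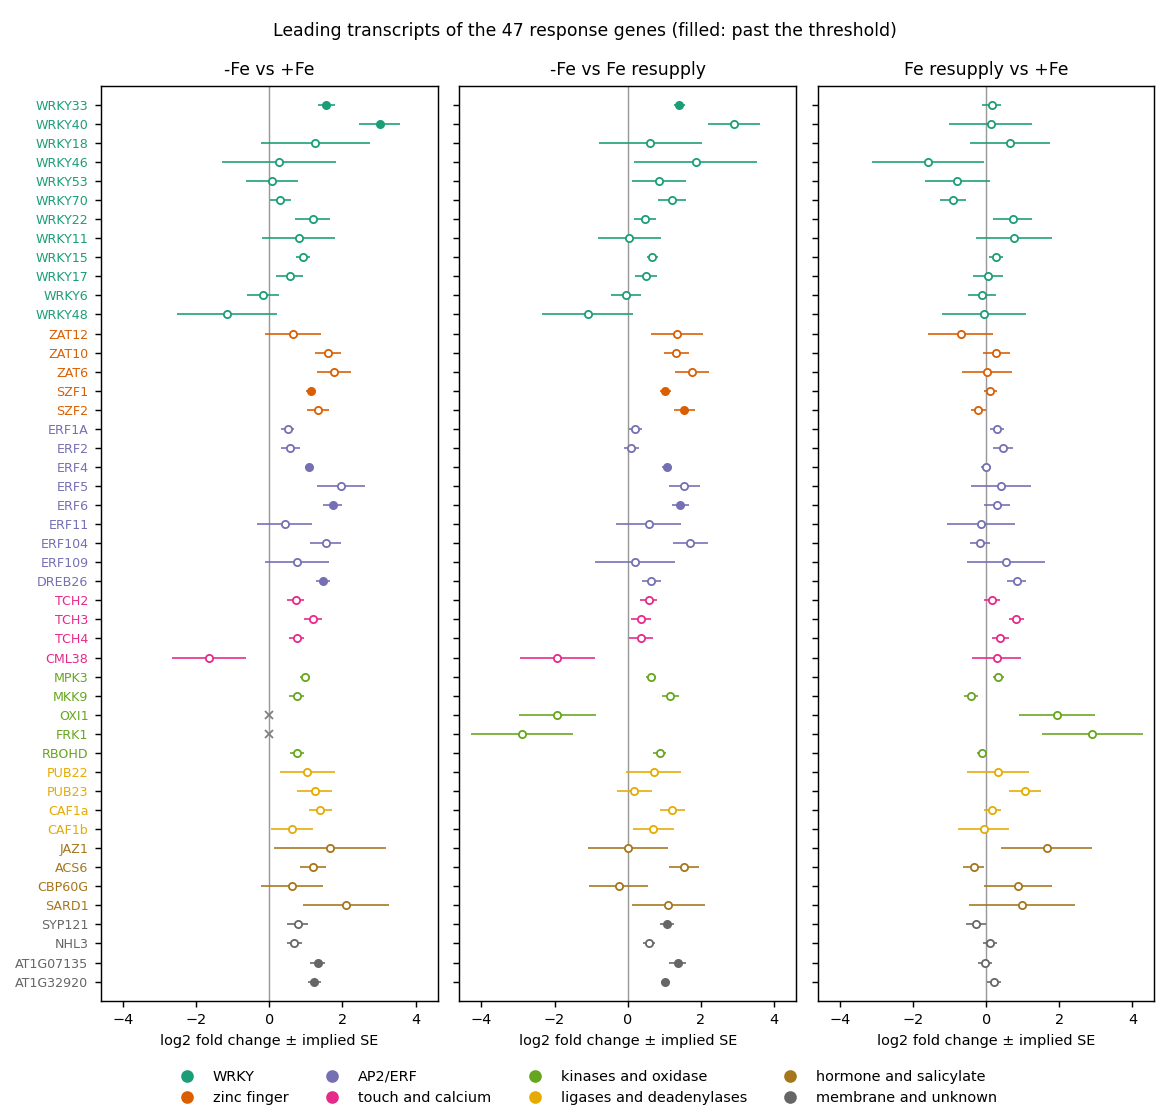
Log2 fold change of the leading transcript of each of the 47 loci (x axis, error bars ± implied SE) in the 3 comparisons, with colours for the role of the gene; filled points passed the threshold and crosses are listed at 0 in both conditions. Most points lie right of 0 in -Fe vs +Fe and -Fe vs Fe resupply (medians 0.93 and 0.70). In Fe resupply vs +Fe the median is 0.17, with 32 loci above 0 and 15 below.

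**Figure D3:**
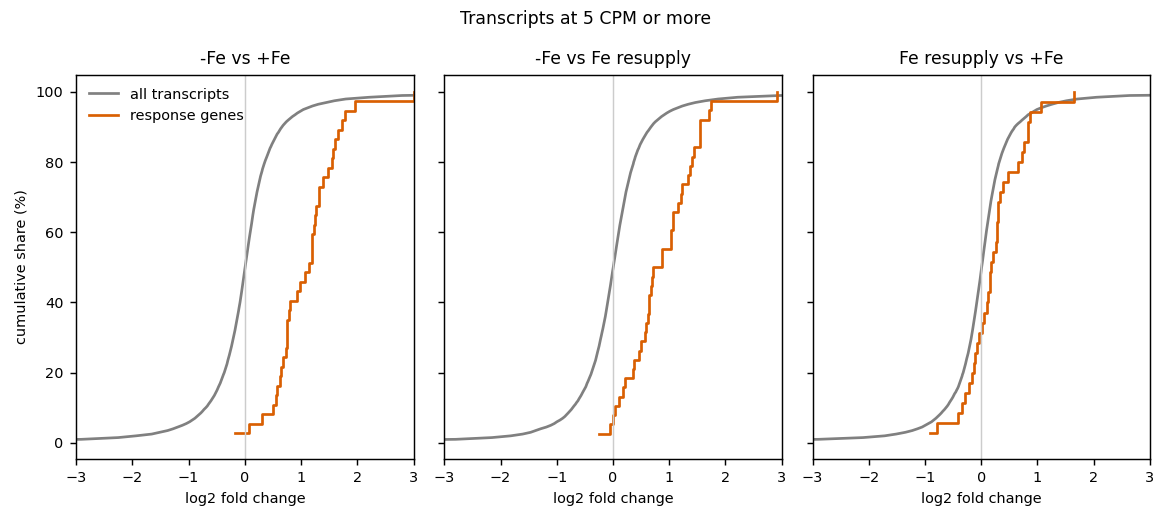
Cumulative share (y axis, %) of log2 fold changes (x axis) among transcripts at 5 CPM or more, for the leading transcripts of the response genes (stepped line) and for all transcripts (grey line, drawn at its percentiles). The stepped line is displaced to the right in -Fe vs +Fe, with a median of 1.14 against 0.004. Its displacement is smaller in Fe resupply vs +Fe, with a median of 0.17 against 0.009.

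Among the 12 WRKY factors, 2 passed the threshold against +Fe and 1 against resupply. Of all transcripts at 5 CPM or more, 0.259% and 0.256% were called higher in -Fe. WRKY33, which is required for resistance to necrotrophic fungi and for induction of camalexin synthesis, was at 34.0 CPM in +Fe, 101 CPM in -Fe and, after resupply, 37.1 CPM. Its log2 fold change was 1.56 (SE 0.232, adjusted p = 0.0088 in the authors' edgeR test) against +Fe and 1.41 (SE 0.145, adjusted p = 0.000459) against resupply. The level in -Fe was thus far above the others, while resupply and +Fe differed by 0.16 on the log2 scale (SE 0.260). In whole shoots, a lower level from fewer cells of a type and one from less RNA per cell cannot be told apart.

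WRKY40, a repressor that acts with WRKY18 to limit defence gene expression, had the largest log2 fold change of the group in -Fe vs +Fe. It was at 3.22 CPM in +Fe, 26.8 CPM in -Fe and, after resupply, 3.40 CPM. The log2 fold change was 3.01 (SE 0.553, adjusted p = 0.0461) against +Fe and 2.91 (SE 0.714, adjusted p = 0.214) against resupply. The size was nearly equal in both, but the second missed the threshold with its wider error.

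WRKY18 itself had 3 detected transcripts, and their order differed between conditions. The leading one, AT4G31800.2, was at 4.54 CPM in +Fe, 11.0 CPM in -Fe and, after resupply, 7.02 CPM (log2 fold change in -Fe vs +Fe 1.26, SE 1.48). AT4G31800.1 was at 10.8 CPM in +Fe, 10.5 CPM in -Fe and, after resupply, 1.08 CPM. For the latter the log2 fold change was 3.13 in -Fe vs Fe resupply (unadjusted p = 0.0384 in the authors' edgeR test) and -3.17 in Fe resupply vs +Fe (unadjusted p = 0.0488). No adjusted p of these transcripts was under 0.05.

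WRKY15, known from oxidative and osmotic stress responses, was at 25.9 CPM in +Fe, 49.6 CPM in -Fe and, after resupply, 30.5 CPM. Its log2 fold change of 0.93 (SE 0.191) had an adjusted p of 0.0972 against +Fe, and against resupply it was 0.67 (SE 0.148, adjusted p = 0.119). WRKY22, a factor downstream of a flagellin-triggered kinase cascade, was at 7.21 CPM in +Fe, 16.6 CPM in -Fe and, after resupply, 11.7 CPM, with a log2 fold change of 1.19 (SE 0.482) against +Fe.

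WRKY70, which promotes salicylate responses and restrains jasmonate ones, had a different order of levels. It was at 93.1 CPM in +Fe, 114 CPM in -Fe and, after resupply, 48.4 CPM. Against resupply -Fe was higher by 1.21 (SE 0.376, adjusted p = 0.597), and resupply was lower than +Fe, with a log2 fold change of -0.91 (SE 0.351, unadjusted p = 0.0232, adjusted p = 0.813 in the authors' edgeR test). WRKY53, a factor of leaf senescence and basal resistance, had 8.32 CPM in +Fe, 8.78 CPM in -Fe and, after resupply, 4.68 CPM, with an SE of 0.889 on its log2 fold change of -0.79 in Fe resupply vs +Fe. WRKY46 was under 2.1 CPM throughout.

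The remaining WRKY genes showed values within about 2 implied SE. WRKY17 and WRKY11, close relatives that restrain basal resistance, had log2 fold changes of 0.56 (SE 0.369) and 0.80 (SE 1.00) in -Fe vs +Fe. WRKY11 had 3 detected transcripts, and the value is that of the leading one. Another, AT4G31550.3, was at 16.7 CPM in +Fe and 16.3 CPM in -Fe. Summed over its transcripts WRKY11 was at 35.4 CPM in +Fe and 52.0 CPM in -Fe. WRKY6, a factor of senescence and phosphate regulation, had -0.17 (SE 0.442) with levels of 15.6 CPM in +Fe and 13.9 CPM in -Fe. WRKY48 had -1.16 (SE 1.36) at a level of 3.46 CPM or less.

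The 5 zinc finger genes were all above 0 in both comparisons with -Fe, with medians of 1.32 and 1.35, and 4 of 5 had an unadjusted p under 0.05 in each. Of all transcripts at 5 CPM or more, 50.5% and 50.4% were above 0, and 4.52% and 5.25% were higher in -Fe at that p. SZF1 and SZF2 are tandem CCCH zinc finger proteins known from salt stress. SZF1 was at 92.2 CPM in +Fe, 203 CPM in -Fe and, after resupply, 97.7 CPM, with a log2 fold change of 1.14 (SE 0.134, adjusted p = 0.00111 in the authors' edgeR test) against +Fe and 1.03 (SE 0.144, adjusted p = 0.00527) against resupply. The other SZF1 transcript, AT3G55980.2, was at 0.342 CPM in +Fe, 0.264 CPM in -Fe and, after resupply, 3.77 CPM. Its log2 fold change was -3.38 (SE 1.76) in -Fe vs Fe resupply. Summed over transcripts, with 1 CPM added to both sums, the log2 ratio of SZF1 against resupply was 0.97, under the minimum of 1. SZF2 was at 26.1 CPM in +Fe, 65.6 CPM in -Fe and, after resupply, 21.9 CPM. It passed against resupply (1.55, SE 0.282, adjusted p = 0.0361) and not against +Fe (1.32, SE 0.299, adjusted p = 0.158). The log2 fold changes of the leading transcripts of the 2 paralogues in these comparisons lie within 1.03 to 1.55, and resupply was close to +Fe in both.

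The coding sequences of SZF1 and SZF2 share 80.4% of aligned bases with a longest identical run of 36 bases, so reads from them can mostly be told apart where they cover a difference. The other related pairs, PUB22 and PUB23, CAF1a and CAF1b, ERF5 and ERF6, ERF1A and ERF2, and WRKY11 and WRKY17, share 77.6% to 81.4%, with identical runs of at most 36 bases.

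ZAT6, ZAT10 and ZAT12 are C2H2 repressors with an EAR motif, induced by cold, salt, high light and hydrogen peroxide. ZAT6 was at 4.19 CPM in +Fe, 14.6 CPM in -Fe and, after resupply, 4.19 CPM, and its log2 fold changes were 1.78 (SE 0.463, adjusted p = 0.341) against +Fe and 1.75 (SE 0.466) against resupply. ZAT10 was at 13.3 CPM in +Fe, 40.5 CPM in -Fe and, after resupply, 15.7 CPM, with 1.60 (SE 0.355, adjusted p = 0.147) against +Fe and 1.33 (SE 0.345, adjusted p = 0.272) against resupply. Both had a GCC-box match in the promoter. ZAT12, also known to bind the iron uptake regulator FIT, was at 4.58 CPM in +Fe, 7.21 CPM in -Fe and, after resupply, 2.71 CPM, and its log2 fold change of 0.64 had an SE of 0.765.

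All 9 AP2/ERF genes had log2 fold changes above 0 in both comparisons with -Fe, beside 50.5% and 50.4% of all transcripts at 5 CPM or more. ERF4 (chromosome 3, 5121303 to 5122562, plus strand, TAIR10.1), a repressor of GCC-box genes, had the smallest p of the group against +Fe. It was at 64.7 CPM in +Fe, 136 CPM in -Fe and, after resupply, 63.6 CPM, and the log2 fold change was 1.07 in both comparisons (SE 0.104 and 0.128, adjusted p = 0.000221 and 0.00174 in the authors' edgeR test). Resupply and +Fe differed by 0.01 (SE 0.136).

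ERF5 and ERF6 are close paralogues that act in chitin and osmotic stress responses. ERF6 was at 15.1 CPM in +Fe, 50.3 CPM in -Fe and, after resupply, 18.2 CPM, and passed in both comparisons with log2 fold changes of 1.73 (SE 0.250, adjusted p = 0.00688) and 1.44 (SE 0.238, adjusted p = 0.0189). ERF5 was at 4.07 CPM in +Fe, 16.1 CPM in -Fe and, after resupply, 5.31 CPM. Its log2 fold change of 1.95 against +Fe was larger than that of ERF6, but with an SE of 0.657 the adjusted p was 0.723. Against resupply it was 1.55 (SE 0.434, adjusted p = 0.386).

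ERF5 and ERF6 each lie beside another member. ERF6 and ERF1A are divergent neighbours on chromosome 4 with 5041 bases between them and no protein-coding gene in that gap. ERF2 and ERF5 are divergent neighbours on chromosome 5 with 6924 bases and 1 small gene between them. Within each pair the values were not alike. ERF1A, an activator of GCC-box genes, was at 39.3 CPM in +Fe, 55.6 CPM in -Fe and, after resupply, 47.3 CPM, with a log2 fold change of 0.50 (SE 0.179) against +Fe. ERF2, its activator paralogue, was at 22.8 CPM in +Fe, 34.0 CPM in -Fe and, after resupply, 31.1 CPM, with 0.57 (SE 0.255). The difference between neighbours was not tested.

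ERF104, which is released from MPK6 upon flagellin perception, was at 35.1 CPM in +Fe, 103 CPM in -Fe and, after resupply, 30.6 CPM. The log2 fold changes were 1.54 (SE 0.417, adjusted p = 0.464) and 1.71 (SE 0.472, adjusted p = 0.432). ERF11 and ERF109 had 0.43 (SE 0.751) and 0.75 (SE 0.869) against +Fe, at levels of about 5 CPM or less.

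DREB26 (chromosome 1, 7696427 to 7697831, plus strand), a member of the DREB class, lay between +Fe and -Fe after resupply. It was at 23.2 CPM in +Fe, 64.6 CPM in -Fe and, after resupply, 40.5 CPM. It passed against +Fe (1.48, SE 0.191, adjusted p = 0.00268) and not against resupply (0.65, SE 0.265, adjusted p = 0.703). In Fe resupply vs +Fe it was 0.84 higher (SE 0.257, unadjusted p = 0.00594, adjusted p = 0.813 in the authors' edgeR test).

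**Figure D4:**
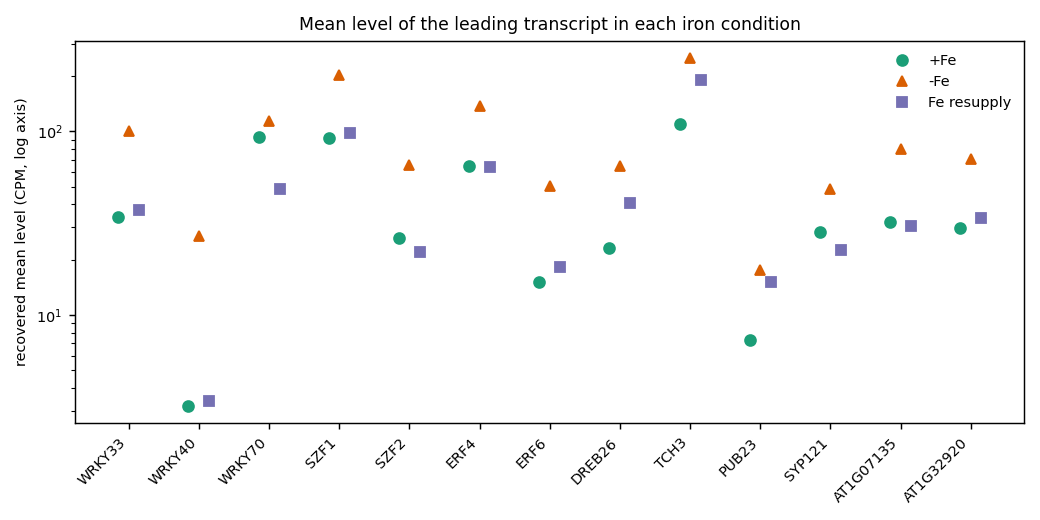
Recovered mean level (y axis, CPM, log axis) of the leading transcript in +Fe (circles), -Fe (triangles) and Fe resupply (squares) for the 10 members that passed the threshold in -Fe vs +Fe or in -Fe vs Fe resupply, with TCH3, PUB23 and WRKY70; the deposited tables give no error for a level. For most of the 10 the circle and the square lie close together, as for ERF4 at 64.7 and 63.6 CPM, whereas DREB26, TCH3 and PUB23 have the square between the others and WRKY70 has it below both, at 48.4 CPM.

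TCH2, TCH3 and TCH4 are the classic touch-induced genes, encoding 2 calmodulin-like proteins and a xyloglucan endotransglucosylase of the cell wall. None passed the threshold, and for each the unadjusted p against +Fe was under 0.05. Of all transcripts at 5 CPM or more, 4.52% were higher in -Fe at that p. TCH3 was at 109 CPM in +Fe, 250 CPM in -Fe and, after resupply, 189 CPM. Its log2 fold change was 1.2 (SE 0.245, adjusted p = 0.122) against +Fe and 0.37 (SE 0.269) against resupply. In Fe resupply vs +Fe it was 0.83 higher (SE 0.203, unadjusted p = 0.00125, adjusted p = 0.813 in the authors' edgeR test), the smallest unadjusted p of the group there.

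TCH4 was at 151 CPM in +Fe, 254 CPM in -Fe and, after resupply, 193 CPM, and TCH2 at 42.8, 70.8 and 46.8 CPM in the same order. Their log2 fold changes against +Fe were 0.75 (SE 0.213) and 0.73 (SE 0.232), and against resupply 0.36 (SE 0.316) and 0.57 (SE 0.227). CML38, a calmodulin-like gene of wounding and low oxygen, was low, at 4.66 CPM in +Fe, 1.42 CPM in -Fe and, after resupply, 5.57 CPM. Its log2 fold change was -1.64 (SE 1.01) against +Fe, so that its direction was not resolved from its error.

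The second most abundant transcript of TCH3, AT2G41100.2, was lower after resupply than in +Fe, unlike the leading one. That difference was not resolved from its error, with a log2 fold change of -0.49 (SE 0.608). AT2G41100.2 was at 18.5 CPM in +Fe, 56.0 CPM in -Fe and, after resupply, 12.9 CPM. Its log2 fold changes were 1.59 (SE 0.431, adjusted p = 0.442 in the authors' edgeR test) against +Fe and 2.09 (SE 0.474, adjusted p = 0.167) against resupply. AT2G41100.7 was near 10 CPM in every condition, and AT2G41100.5 was at 1.75 CPM in +Fe, 9.38 CPM in -Fe and 0 in resupply. No adjusted p of these transcripts was under 0.05. Summed over its transcripts TCH3 was at 139 CPM in +Fe, 325 CPM in -Fe and, after resupply, 213 CPM.

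**Figure D5:**
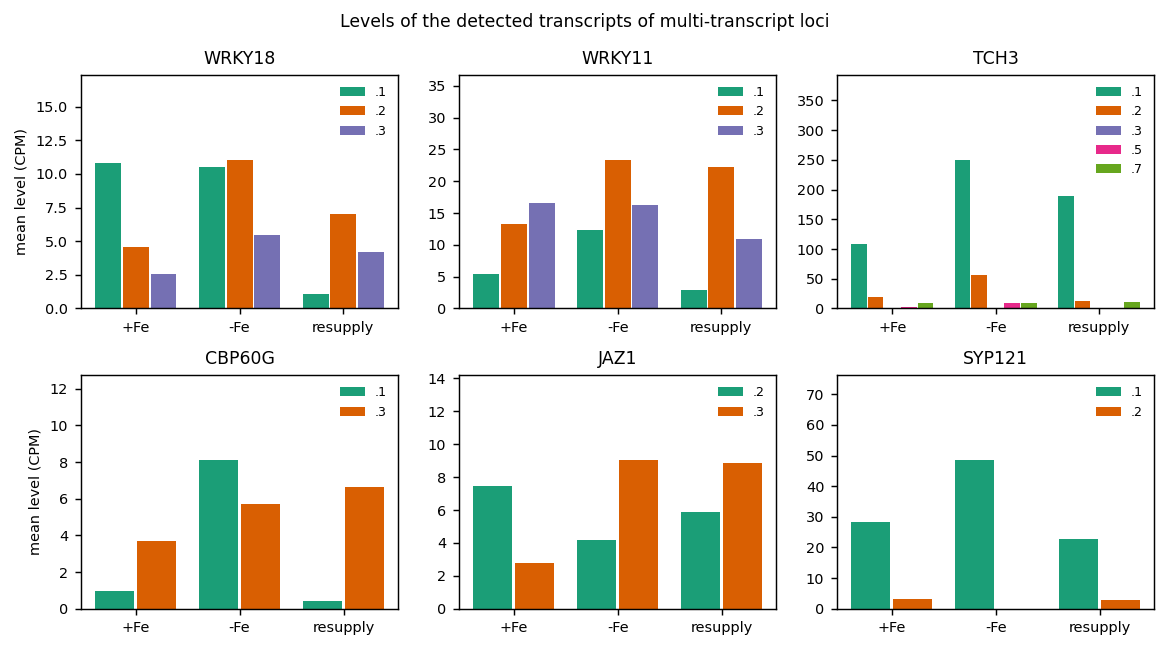
Mean level (bars, CPM) of each detected transcript in +Fe, -Fe and Fe resupply for 6 of the 7 loci with at least 2 detected transcripts, with the transcript number in the legend; the tables give no error for a level. WRKY18 transcript AT4G31800.1 is at 1.08 CPM in resupply, TCH3 transcript AT2G41100.1 makes up most of its locus, and SYP121 transcript AT3G11820.2 is at 0 in -Fe. The locus not drawn is SZF1.

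Among the signalling enzymes, MPK3, a mitogen-activated protein kinase activated by wounding and microbial molecules, was at 55.0 CPM in +Fe, 108 CPM in -Fe and, after resupply, 67.8 CPM. Its adjusted p against +Fe was 0.00268, but the log2 fold change of 0.97 (SE 0.126) was just under the minimum of 1. Against resupply the log2 fold change was 0.64 (SE 0.141, adjusted p = 0.116). It was 0.33 higher in resupply than in +Fe (SE 0.150, unadjusted p = 0.0436). MKK9, a kinase kinase upstream of MPK3 and MPK6, was at 40.5 CPM in +Fe, 68.0 CPM in -Fe and, after resupply, 29.7 CPM. The log2 fold change was 0.75 (SE 0.208, adjusted p = 0.455) against +Fe and 1.16 (SE 0.234, adjusted p = 0.069) against resupply, and in Fe resupply vs +Fe it was -0.41 (SE 0.186, unadjusted p = 0.043). The 2 kinases thus lay on opposite sides of +Fe after resupply, each at an adjusted p of 0.813 in the authors' edgeR test.

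RBOHD, the NADPH oxidase of the defence oxidative burst, was at 64.8 CPM in +Fe, 109 CPM in -Fe and, after resupply, 58.2 CPM. The log2 fold changes were 0.75 (SE 0.200, adjusted p = 0.375) and 0.88 (SE 0.179, adjusted p = 0.0725). OXI1, a kinase activated by hydrogen peroxide, and FRK1, a receptor-like kinase used as a flagellin marker, were listed at 0 in +Fe and -Fe. In resupply OXI1 was at 0.309 CPM and FRK1 at 0.715 CPM, both close to 0, so no fold is given.

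PUB22 and PUB23 are U-box ubiquitin ligases that dampen immune signalling. PUB23 was at 7.33 CPM in +Fe, 17.6 CPM in -Fe and, after resupply, 15.2 CPM. It was 1.25 higher in -Fe (SE 0.480) and 1.07 higher in resupply (SE 0.441, unadjusted p = 0.0299, adjusted p = 0.813) than in +Fe, and -Fe and resupply differed by 0.18 (SE 0.482). PUB22 was at 3.15 CPM in +Fe and 6.61 CPM in -Fe, with a log2 fold change of 1.04 (SE 0.743).

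CAF1a and CAF1b are deadenylases that shorten the poly(A) tails of stress mRNAs. CAF1a was at 32.0 CPM in +Fe, 84.2 CPM in -Fe and, after resupply, 35.3 CPM, with log2 fold changes of 1.39 (SE 0.311, adjusted p = 0.166) and 1.22 (SE 0.350). CAF1b was at 5.40, 8.42 and 5.03 CPM in the same order, with 0.63 (SE 0.574) against +Fe.

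Of the hormone and salicylate genes, ACS6, an ethylene biosynthesis enzyme stabilized by MPK3 and MPK6, was at 36.7 CPM in +Fe, 83.7 CPM in -Fe and, after resupply, 28.2 CPM. The log2 fold changes were 1.19 (SE 0.36, adjusted p = 0.656) and 1.54 (SE 0.399, adjusted p = 0.321). SARD1 and CBP60G, which turn on salicylate synthesis, had log2 fold changes of 2.09 (SE 1.18) and 0.62 (SE 0.840) against +Fe by their leading transcripts, at 6.88 CPM or less. Another CBP60G transcript, AT5G26920.1, was at 0.966 CPM in +Fe, 8.10 CPM in -Fe and, after resupply, 0.447 CPM (2.93, SE 1.61 against +Fe). Summed over its transcripts CBP60G was at 4.65 CPM in +Fe, 13.8 CPM in -Fe and, after resupply, 7.12 CPM. JAZ1, a jasmonate repressor, had 2.78 CPM in +Fe, 9.03 CPM in -Fe and, after resupply, 8.87 CPM by its leading transcript, with an SE of 1.52 on the log2 fold change of 1.66. Summed over its transcripts JAZ1 was at 10.3 CPM in +Fe, 13.2 CPM in -Fe and, after resupply, 14.8 CPM.

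The last 4 loci all had an unadjusted p under 0.05 in both comparisons with -Fe. Of all transcripts at 5 CPM or more, 4.52% and 5.25% were higher in -Fe at that p. SYP121 (chromosome 3, 3729305 to 3731251, minus strand), the syntaxin of penetration resistance, was at 28.2 CPM in +Fe, 48.5 CPM in -Fe and, after resupply, 22.6 CPM, and passed against resupply (1.07, SE 0.184, adjusted p = 0.0235) and not against +Fe (0.78, SE 0.284, adjusted p = 0.723). Its other transcript, AT3G11820.2, was at 3.24 CPM in +Fe, 0 in -Fe and 2.90 CPM in resupply. Summed over transcripts, with 1 CPM added to both sums, the log2 ratio of SYP121 against resupply was 0.87, under the minimum of 1. NHL3, a plasma membrane protein of the NDR1/HIN1-like family, was at 64.6, 103 and 67.9 CPM in +Fe, -Fe and resupply, with 0.68 (SE 0.206) against +Fe and 0.58 (SE 0.156, adjusted p = 0.331) against resupply.

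AT1G07135 and AT1G32920, given no name in the annotation used here, are single-exon genes on chromosome 1, at 2189877 to 2190784 on the minus strand and 11928757 to 11929993 on the plus strand (TAIR10.1). AT1G07135 was at 31.9 CPM in +Fe, 80.2 CPM in -Fe and, after resupply, 30.4 CPM, with log2 fold changes of 1.33 (SE 0.207, adjusted p = 0.0138) and 1.37 (SE 0.234, adjusted p = 0.0235). AT1G32920 was at 29.9 CPM in +Fe, 70.5 CPM in -Fe and, after resupply, 33.9 CPM, with 1.23 (SE 0.177, adjusted p = 0.00647) and 1.03 (SE 0.122, adjusted p = 0.00174). In both genes +Fe and resupply differed by less than 0.22 on the log2 scale. Of the 47 loci, 22 have a leading transcript of a single exon.

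The level set the precision with which a locus could be judged. In -Fe vs +Fe the 14 detected loci under 10 CPM had a median SE of 0.855 and 0 passed the threshold. OXI1 and FRK1, at 0 there, are left out. The 12 loci from 10 to 40 CPM had a median SE of 0.405 and 2 passed, and the 19 loci at 40 CPM and over had 0.208 and 6 passed. A difference of 1 on the log2 scale was thus hardly detectable for loci such as SARD1, JAZ1 or PUB22. The 6 libraries per condition were also taken as 3 samples each entered as an identical pair, by an approximate rescaling of the deposited F statistic without a new fit. By this rescaling 0 member transcripts passed in any comparison. The rescaled unadjusted p was under 0.05 for 21, 21 and 1 of them, in the order of comparisons above. Of all transcripts 0.934%, 1.11% and 0.402% had such a p. The rescaling keeps the fitted variance, which identical pairs would make too small, so these counts may be too high.

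Genes that stand around the group in the same pathways were taken as lists, and 1 of their 44 genes passed the threshold, PR5, in -Fe vs Fe resupply. Of all transcripts 0.0758% were called higher in -Fe there, and 0.256% of those at 5 CPM or more. With the libraries taken as identical pairs 0 of all transcripts passed in that comparison, so the PR5 call was lost as well. The upstream defence components FLS2, BAK1, CERK1, BIK1, MEKK1, MKK4, MKK5, MPK6, MPK4 and CAMTA3 had log2 fold changes against +Fe with a median of 0.14, ranging from -0.64 to 0.24. Of these 10, 1 had an unadjusted p under 0.05 there, the kinase MPK6, which was lower in -Fe (-0.33, SE 0.134). In -Fe vs Fe resupply MKK4 was the only one of the 10 with such a p, with a log2 fold change of 0.70.

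Among the 7 salicylate genes, the pathogenesis-related PR5 was at 9.72 CPM in +Fe, 71.5 CPM in -Fe and, after resupply, 16.0 CPM. Its log2 fold change was 2.86 (adjusted p = 0.166) against +Fe and 2.12 (adjusted p = 0.00473 in the authors' edgeR test) against resupply. PR2, a glucanase, was at 4.47 CPM in +Fe, 72.5 CPM in -Fe and, after resupply, 4.48 CPM (3.99, SE 1.19, adjusted p = 0.682). PR1 was at 4.27 CPM in +Fe and 2.27 CPM in -Fe (-0.88, SE 1.3). EDS1, a lipase-like immune regulator, had 0.62 (SE 0.200) against +Fe, and ICS1, the salicylate synthesis enzyme, 0.61 (SE 0.699).

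Of the 3 camalexin enzymes none passed. PAD3 was at 0.431 CPM in +Fe, 8.69 CPM in -Fe and under 0.001 CPM in resupply, with an adjusted p of 0.723 against +Fe and 0.264 against resupply. CYP79B2 had 0.59 (SE 1.06) against +Fe, and CYP71A13 was at 0.164 CPM or less.

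None of the 14 jasmonate genes passed either. In -Fe, 1 differed from +Fe at an unadjusted p under 0.05, the defensin gene PDF1.2, listed at 0 in +Fe and at 3.34 CPM in -Fe. Of all transcripts at 5 CPM or more, 4.52% were higher in -Fe than in +Fe at such a p, and 5.25% were higher than in resupply. In -Fe vs Fe resupply 3 had such a p, all higher in -Fe: the synthesis enzymes LOX2 (0.52, SE 0.221) and AOS (0.35, SE 0.0958), and JAZ10, at 1.87 CPM in -Fe and listed at 0 after resupply. In Fe resupply vs +Fe 4 had such a p, 1 higher and 3 lower, where 3.31% and 2.75% of all transcripts at 5 CPM or more were. PDF1.2 was the higher one, at 0.899 CPM after resupply. JAZ10 (3.47 CPM in +Fe), LOX2 and the wound-induced storage protein gene VSP2 were the lower ones, the last 2 with log2 fold changes of -1.02 (SE 0.249) and -1.07 (SE 0.336), and the adjusted p of all 4 was 0.813 in the authors' edgeR test. VSP2 was at 413 CPM in +Fe, 227 CPM in -Fe and, after resupply, 193 CPM.

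Of the 10 low-oxygen genes, 7 were detected in -Fe vs +Fe and 3 had an unadjusted p under 0.05, all higher in -Fe. In -Fe vs Fe resupply there were 5, all higher in -Fe. Among all transcripts at 5 CPM or more, 4.52% and 5.25% were higher in -Fe at such a p, and most of these 10 genes were measured at lower levels than that or at 0. HB1, a hemoglobin, was listed at 0 in +Fe and in resupply and at 7.77 CPM in -Fe (adjusted p = 0.0972 and 0.0825). HRA1, a trihelix factor that restrains the response to low oxygen, was at 8.47 CPM in +Fe, 20.4 CPM in -Fe and, after resupply, 9.63 CPM (1.26, SE 0.324 against +Fe), and LBD41 at 17.3, 27.4 and 11.5 CPM. SUS4, HRE2 and PCO2 were at 0 in every condition.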

How the data were processed

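RNA-seq was made from shoots of 9 samples, 3 per condition. Per the labels and methods, the authors trimmed reads with Trimmomatic (0.36.5), mapped them to TAIR10 with HISAT2 (2.1.0), quantified transcripts with StringTie (1.3.3.2) and tested them with edgeR (3.20.7.2). The deposited tables give, for each of 55442 transcripts and each pair of conditions, the authors' log2 fold change and average log2 CPM, the authors' F statistic (a score), and the deposited p-value with its Benjamini-Hochberg adjustment. These author-made statistics are used because the genes are defined on them. The input given to edgeR is not given in the sources used here. How it was scaled affects the errors, and 12 libraries entered each fit.

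The members and lists were chosen with earlier results of these data known. Mean levels were recovered by taking the floor of each table off the average; SE is the absolute log2 fold change over the square root of F. The arithmetic of this step was tested on simulated data with its constants supplied. The floor as read from each table was not tested. Levels and fold changes are given for members past the threshold or at an unadjusted p under 0.05 in any comparison, and for the 5 highest and 5 lowest at 5 CPM or more in each. The labels do not say that replicates came from separate cultures beyond calling them biological. Promoters and gene models came from RefSeq TAIR10.1; all 47 leading transcripts matched it. The promoter of 1 of the 47 loci is not reported here, so 46 were searched. Protein sequences were not used here, so the planned protein comparison was not run, and coding bases were compared instead by global alignment (Biopython 1.88). Other steps used Python 3.11.15, numpy 2.4.6, pandas 2.3.3 and scipy 1.17.1. Alternatives were the fold minimum, the p adjustment, a filter at 1 CPM, the pairing of libraries and other summaries of a locus.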

Additional observations from a re-analysis of the deposited data

How the results depend on the processing

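The count of member transcripts past the threshold, 8 in each comparison of -Fe with another condition, depended on the threshold. With a minimum log2 fold change of 2 1 was left against +Fe and 0 against resupply, and with Bonferroni adjustment there were 2 and 3. With an unadjusted p under 0.05 and the minimum log2 fold change kept, there were 20, 22 and, in Fe resupply vs +Fe, 3. The share of all transcripts passing by that rule is not given here. With libraries taken as identical pairs there were 0 in each, and 3 of all transcripts passed in -Fe vs +Fe. With no minimum fold change the counts were 9 and 8, the first by the addition of MPK3, and with transcripts at 1 CPM or more adjusted again 8 and 9, the second by the addition of MKK9. Of the 16 calls, 16 were kept with no minimum fold change and with the filter, 5 with Bonferroni adjustment, 1 with the minimum of 2 and 0 with identical pairs. Under the other summaries of a locus the median log2 fold changes ranged from 0.74 to 1.14 in -Fe vs +Fe, from 0.67 to 0.79 in -Fe vs Fe resupply and from 0.16 to 0.17 in Fe resupply vs +Fe. No paired analysis was possible because the tables hold no value for a single sample, and leaving out a replicate could not be run for the same reason. Whether the 6 libraries per condition are repeats of 3 samples was not tested. Low levels limit the rest: 14 detected loci were under 10 CPM in -Fe vs +Fe, and OXI1 and FRK1 were at 0.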
